A study of Mus musculus with 4 samples.

Results

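The genes described here are 6 mouse genes that are known for expression in the testis and that stand on an autosome while a relative acts in other tissues, namely Slc25a31, Rpl10l, Rpl39l, Pdha2, Cetn1 and Pgk2. They were taken as a named list, drawn up with earlier results of these data known, and they make up 6 of the 21627 protein-coding genes of the autosomes and X in the RefSeq table used. All CpGs from 2000 bp before the lower end to 2000 bp after the upper end of each gene were taken, which gave 487 listed CpGs, of which 374 were read in all 4 libraries, in 93 bins of 500 bp. The libraries are whole-genome bisulfite sequencing of mouse embryonic stem cells (mESC) whose Ogt gene is floxed on all copies (Ogt fl/fl). In the group called Ogt iKO, 2 libraries came from cells grown for 6 days with 4-hydroxytamoxifen (4-OHT), the drug that starts the inducible knockout, and sorted for viable YFP+ cells. In the control group, 2 libraries came from Ogt fl/fl cells kept without 4-OHT over the same 6 days. Both groups were grown on mitomycin C-treated mouse fibroblasts as feeders, which were removed by cell sorting. Only treated cells were sorted for YFP, so the knockout, the drug and the reporter sort cannot be told apart. Whether replicates 1 and 2 came from separate cultures or lines is not given in the sources used here. The p-values thus measure only the spread between these libraries, partly or wholly pooled over many regions, and that spread may be technical. Bisulfite leaves 5-methylcytosine and 5-hydroxymethylcytosine unconverted, and the methylation level given here, the percent of reads that kept a C, is the sum of both.

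OGT is the enzyme that adds N-acetylglucosamine to nuclear and cytosolic proteins, and it binds the TET enzymes, which oxidise 5-methylcytosine. Male germ cells silence the X chromosome during meiosis, so several housekeeping proteins encoded on X are supplied then by autosomal copies. Many such copies arose by retroposition, in which an mRNA is copied back into the genome without its introns. CpG-rich promoters of germ cell genes are a known class of sequences that gain methylation in cells that are not germ cells. Slc25a31 (also called Ant4) encodes the ADP/ATP carrier of the inner mitochondrial membrane in the male germ line. Rpl10l and Rpl39l encode proteins of the large ribosomal subunit. Pdha2 encodes the E1 alpha subunit of pyruvate dehydrogenase and Pgk2 the phosphoglycerate kinase of sperm glycolysis. Cetn1 encodes a centrin, a calcium-binding protein of centrioles and ciliary bases.

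The genes are given by GRCm38.p6 (mm10) coordinates. Slc25a31 lies on chromosome 3 at 40708871 to 40726094, Pdha2 on chromosome 3 at 141210004 to 141212355, Rpl10l on chromosome 12 at 66283379 to 66284401, Rpl39l on chromosome 16 at 10170197 to 10174911, Pgk2 on chromosome 17 at 40207018 to 40208609 and Cetn1 on chromosome 18 at 9618419 to 9619469. Rpl10l, Cetn1, Pgk2 and Pdha2 span 1023 to 2352 bp, the size of a gene without long introns. Slc25a31 spans 17224 bp and Rpl39l 4715 bp, more than a retroposed mRNA of these small proteins would take up. For these 2 genes the word retrogene is therefore a list name, and exon structures were not analysed here. No other annotated gene lay within the 6 regions.

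Depth and level of the whole libraries set the frame. The tables held 64273609 to 79929994 reads over CpGs per library, with means of 3.35 to 4.04 reads per listed CpG, and both Ogt iKO libraries were the deeper ones. Over 16341360 CpGs read in every library the mean level was 65.1% and 62.9% in replicates 1 and 2 of Ogt iKO, and 70.1% and 73.8% in those of the control, so the group means differed by -7.98 points over the genome. The starts of the stem cell genes Pou5f1, Nanog and Zfp42, which stem cells keep unmethylated, were at 0% to 8.33% in all 4 libraries. Pou5f1 was at 0% in both Ogt iKO libraries and at 5.13% and 1.32% in controls. Zfp42 was likewise at 0% in both, against 8.33% and 2.35%. Nanog was at 5.56% and 2% in Ogt iKO and at 4.17% and 2.70% in controls. The cause of these differences was not tested. Reads over Ogt, relative to chromosome X, stood at 1.23 ± 0.0327 in Ogt iKO and 1.24 ± 0.0630 in controls (SD, n = 2 each), a measure over the whole gene that cannot show the loss of a floxed part.

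The 250 bases before the start of transcription are printed for the members whose start is CpG-rich and, for contrast, for Pgk2, since the position of the CpGs decides where methylation could be read at all. They are RefSeq sequences of GRCm38.p6, written 5′ to 3′ on the strand of the gene, with each CpG in capitals, at chr3:40708621-40708870 (Slc25a31, plus strand), chr12:66284402-66284651 (Rpl10l, minus strand), chr16:10169978-10170227 (Rpl39l, plus strand) and chr17:40208610-40208859 (Pgk2, minus strand).
Slc25a31: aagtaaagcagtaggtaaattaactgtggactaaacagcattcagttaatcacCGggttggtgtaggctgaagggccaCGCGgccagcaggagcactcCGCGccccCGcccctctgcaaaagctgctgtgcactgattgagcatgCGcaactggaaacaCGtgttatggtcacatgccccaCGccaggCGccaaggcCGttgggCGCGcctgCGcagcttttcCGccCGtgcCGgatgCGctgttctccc
Rpl10l: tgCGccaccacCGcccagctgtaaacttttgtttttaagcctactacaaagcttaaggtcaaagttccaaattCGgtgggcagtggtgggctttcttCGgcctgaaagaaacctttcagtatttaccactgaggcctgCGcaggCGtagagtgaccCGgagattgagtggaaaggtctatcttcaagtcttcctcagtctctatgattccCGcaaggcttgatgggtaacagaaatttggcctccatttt
Rpl39l: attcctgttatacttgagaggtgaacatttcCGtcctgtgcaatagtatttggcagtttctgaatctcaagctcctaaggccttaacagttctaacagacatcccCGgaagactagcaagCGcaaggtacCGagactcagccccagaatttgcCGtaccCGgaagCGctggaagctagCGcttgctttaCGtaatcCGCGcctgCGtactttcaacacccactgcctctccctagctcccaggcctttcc
Pgk2: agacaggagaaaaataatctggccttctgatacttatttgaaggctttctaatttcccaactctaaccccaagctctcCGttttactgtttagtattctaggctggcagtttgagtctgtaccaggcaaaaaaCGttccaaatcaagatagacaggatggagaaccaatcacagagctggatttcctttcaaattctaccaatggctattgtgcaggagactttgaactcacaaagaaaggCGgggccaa
These stretches hold 18 CpGs in Slc25a31, 8 in Rpl10l, 12 in Rpl39l and 3 in Pgk2. In the table's full windows of 300 bp, which run 50 bp past the start, the counts were 22, 13, 17 and 4, and Pdha2 had 4. Of 32851 promoter windows in the table, 23.1% hold at least as many CpGs as Slc25a31, 37.9% as many as Rpl10l, 31.4% as many as Rpl39l, and 68.6% as many as Pgk2 or Pdha2. Cetn1 has no entry. All 22, 13, 17, 4 and 4 CpGs of these windows were listed in the methylation tables.

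A bin was called CpG-dense when it held at least 20 listed CpGs, and 5 of the 93 bins did. They belong to 4 genes. Slc25a31 has 2 such bins side by side, with 32 and 29 CpGs, which cover its start and the first part of the gene. Rpl10l has 1 with 39 CpGs and Rpl39l 1 with 26, both over the start. The dense bin of Pdha2, with 27 CpGs, lies inside the gene and is centred 605 bp after the start, while the start itself is CpG-poor. Just under the limit were a bin of Pdha2 with 19, one of Rpl10l with 18 and one of Cetn1 with 17 CpGs. Pgk2 reached at most 11 and, like Cetn1, had no dense bin. Levels were read over CpGs that all 4 libraries had read at least 1 time, and a bin was tested if at least 5 such CpGs and at least 10 reads per library remained.

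In the dense part of Slc25a31, the carrier gene, the level was 15.5% and 19.3% in replicates 1 and 2 of Ogt iKO and, in the same order, 41.4% and 52.4% in controls. These values rested on 42 CpGs and 129 to 170 reads per library, with 95% Wilson intervals of 10.3% to 22.7% and 13.5% to 26.7% in Ogt iKO and of 33.9% to 49.4% and 44.9% to 59.7% in controls. The groups did not overlap, and their means were 17.4% ± 2.66 and 46.9% ± 7.71 (SD, n = 2 each). The difference was -29.5 percentage points. Wilson intervals cover counting error only, and they are too narrow here because neighbouring CpGs share reads. The bin over the start was at 11.3% and 10.9% in Ogt iKO and 35.6% and 45.2% in controls. The next bin, inside the gene, was at 20.7% and 37.2% against 46.8% and 61.0%.

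Rpl39l, one of the ribosomal protein genes, was intermediate in controls and low in Ogt iKO as well. Its dense bin was at 10% and 12.8% in Ogt iKO and at 42.9% and 56.6% in controls, over 18 CpGs and 35 to 76 reads per library. Both Ogt iKO libraries lay below both controls, at means of 11.4% ± 1.96 and 49.7% ± 9.70 (SD, n = 2 each). The difference was -38.3 points. Over all 26 listed CpGs it was -30.2 points, at 11.25% and 14.5% in Ogt iKO and 40% and 46.1% in controls.

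Pdha2, the pyruvate dehydrogenase gene, had the highest level and the largest gap of the 4 genes. Its dense bin was at 35.8% and 29.5% in Ogt iKO and at 74.1% and 100% in controls, over 18 CpGs. The value of 100% in control replicate 2 came from 20 reads, with a 95% Wilson interval of 83.9% to 100%, against 44 to 67 reads in the other libraries. The means were 32.7% ± 4.44 and 87.1% ± 18.3 (SD, n = 2 each). The difference was -54.4 points, and it was -41.5 points without control replicate 2 and -67.3 points without control replicate 1.

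Rpl10l, the other ribosomal protein gene, had a low level in its dense bin, which lies mostly inside the gene, and its controls disagreed. The dense bin was at 6.52% and 2.08% in Ogt iKO, at 35.1% in control replicate 1 and at 8.57% in control replicate 2. Only 13 of its 39 CpGs were read in every library, with 35 to 48 reads. The groups were just apart, but the difference of -17.6 points was smaller than the SD of 18.8 between the controls, and it was -4.27 points without control replicate 1 and -30.8 points without control replicate 2. Over all 39 listed CpGs the groups overlapped, at 3.36% and 5.94% in Ogt iKO and 35.1% and 4.55% in controls.

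**Figure D1:**
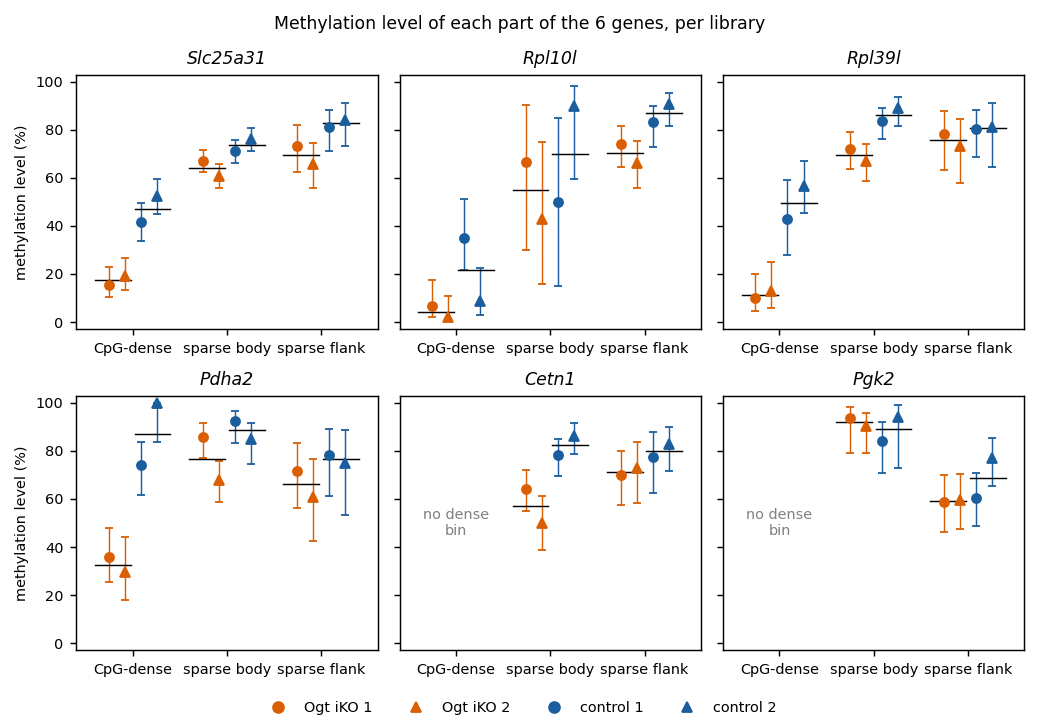
Methylation level (percent, y axis) of the CpG-dense bins, the sparse bins inside the gene and the sparse bins within 2000 bp outside it (x axis), for each of the 6 genes. Points are libraries (circles replicate 1, triangles replicate 2; orange Ogt iKO, blue control), bars their 95% Wilson intervals and black lines the group means. In Slc25a31, Rpl39l and Pdha2 the orange points of the dense part stand at 10% to 35.8% and the blue ones at 41.4% to 100%.

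For the test, methylated and total reads of every dense bin of the genome entered a quasi-binomial model whose dispersion limma moderated. A bin counted as called if its Benjamini-Hochberg adjusted p was under 0.05 and its groups lay 10 points or more apart. None of the 5 dense bins was called, with adjusted p from 0.289 to 0.937. This test called few features at all: 6 of 42190 dense bins, or 0.0142%, were called lower in Ogt iKO. All 5 member bins were lower in Ogt iKO with groups apart, where 18.0% of all dense bins were, and all 5 had an unadjusted p under 0.05 in that direction, where 4.68% of all dense bins did. With all listed CpGs the groups of the Rpl10l bin overlapped. In that setting 4 of the 5 had an unadjusted p under 0.05, where 2801 of 46680 dense bins did in either direction. Limma on logit levels and edgeR each gave an unadjusted p under 0.05 in 3 of the 5. Over all 42190 dense bins they gave it in 2988 and 1603, in either direction. Most dense bins of the genome had little methylation, with a median of 1.85% in controls. Among the 10701 dense bins with a mean of at least 20% over the 4 libraries, 41.1% had the groups apart and lower and 13.5% an unadjusted p under 0.05 and lower. Of the member bins, 4 belong to that class, and the bin of Rpl10l does not.

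The median difference of the 5 bins was -29.3 points. The median was -8.16 points in the dense bins with a mean of at least 20%, where the 5th percentile was -31.6 points, and 0 points in all dense bins. The bins of Rpl39l and Pdha2 lay below that percentile and both bins of Slc25a31 above it. With all listed CpGs, a setting whose percentile is not given here, the bin of Rpl39l differed by -30.2 points. Taken gene by gene, 0 of the 4 dense parts were called, with adjusted p of 0.162 for Slc25a31, 0.248 for Rpl39l, 0.302 for Pdha2 and 0.945 for Rpl10l, and 3 of the 4 had an unadjusted p under 0.05. Over all genes 1 of 14532 dense parts was called lower (0.00688%), and 4.62% had an unadjusted p under 0.05 and were lower. Dense parts with a mean of at least 20% were also fitted on their own, a class chosen after seeing the data. There 305 of 2127 had an unadjusted p under 0.05 in either direction, and so did the 3 members in that class. edgeR and limma on logit levels called 0 of the 4 as well, but each called 0 of all 14532 dense parts. They gave an unadjusted p under 0.05 in 4 and 3 of the 4, and in 859 and 943 of the 14532, in either direction. For Slc25a31 the difference of the dense part was -35.0 points without control replicate 1 and -24.1 points without control replicate 2. With at least 3 reads per CpG in every library only 7 of its CpGs were left, at 18.5% and 23.1% in Ogt iKO and 27.6% and 29.5% in controls, and the difference was -7.77 points. That stricter minimum left 8 CpGs of Rpl10l (-13.5 points) and too few in Rpl39l and Pdha2 to test. With 15 listed CpGs as the limit for a dense bin, which changes the set of bins tested, the bin of Rpl39l was called (adjusted p = 0.0422). It was 1 of 7 member bins tested, where 136 of 87104 bins were called. The dense part of Rpl39l was not called at that limit (adjusted p = 0.0953, quasi-binomial model). At a limit of 25, 0 of the 5 member bins were called, and 0 of all 27496. The dense bins also depended on where the grid begins. Shifted by 250 bp, the grid left 3 dense member bins to test, 1 each in Slc25a31 (-36.9 points), Pdha2 (-45.3 points) and Rpl10l (-13.9 points), and none in Rpl39l. Of these, 2 had an unadjusted p under 0.05 in the quasi-binomial model, where 2283 of 42333 dense bins did in either direction.

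**Figure D2:**
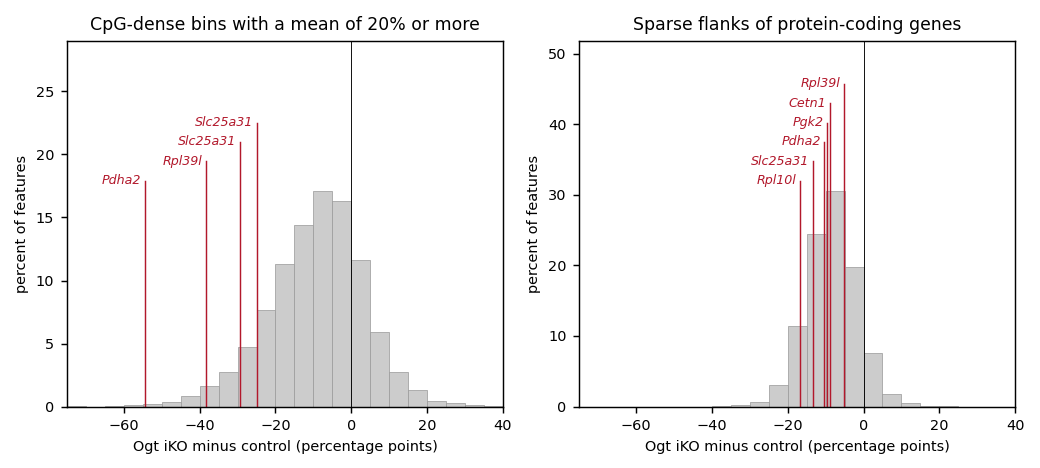
Distribution of the difference between Ogt iKO and control (x axis, percentage points) over the 10701 CpG-dense bins with a mean of at least 20% (left) and over the sparse flanks of 21063 genes (right), as percent of features (y axis). Red lines mark the members, on the left only their dense bins with a mean of at least 20%. The dense bin of Rpl10l (-17.6 points) is thus not marked there. On the left the red lines stand at -54.4 to -25 points, and on the right at -16.7 to -5.18 points, inside the bulk.

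Single CpGs show how the lower level was spread along the bins. Of the 42 CpGs of the Slc25a31 bins read in every library, 35 were lower in the pooled Ogt iKO reads than in the pooled control reads, 3 were equal and 4 were higher. No methylated read was seen at 20 of them in Ogt iKO and at 3 in controls. The 4 that were higher lay 457 to 568 bp after the start, at the inner end of the dense part, where Ogt iKO reached 85.7% at 514 bp against 60.0% in controls. Around the start, from 91 bp before it to 12 bp before it, Ogt iKO had 2 CpGs with any methylated read, at 12.5% and 20%, and controls ran from 0% to 100% on 4 or 5 reads per CpG.

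In Rpl39l, 16 of 18 CpGs were lower in Ogt iKO, 1 was equal and 1 higher, and 11 had no methylated read in Ogt iKO against 1 in controls. The CpG that was higher lay 52 bp before the start and rested on 2 Ogt iKO reads. In Pdha2 all 18 CpGs read in every library were lower, and 17 were at 50% or more in controls against 6 in Ogt iKO. In Rpl10l, 11 of 13 were lower, and the CpGs at 50% or more in controls were the 2 before the start. Median depth was 4.5 to 8 Ogt iKO reads and 4 to 7.5 control reads per CpG, with 2 libraries pooled, so a level of 1 CpG is coarse. CpGs of a bin lie on shared reads and are no replicates of each other.

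**Figure D3:**
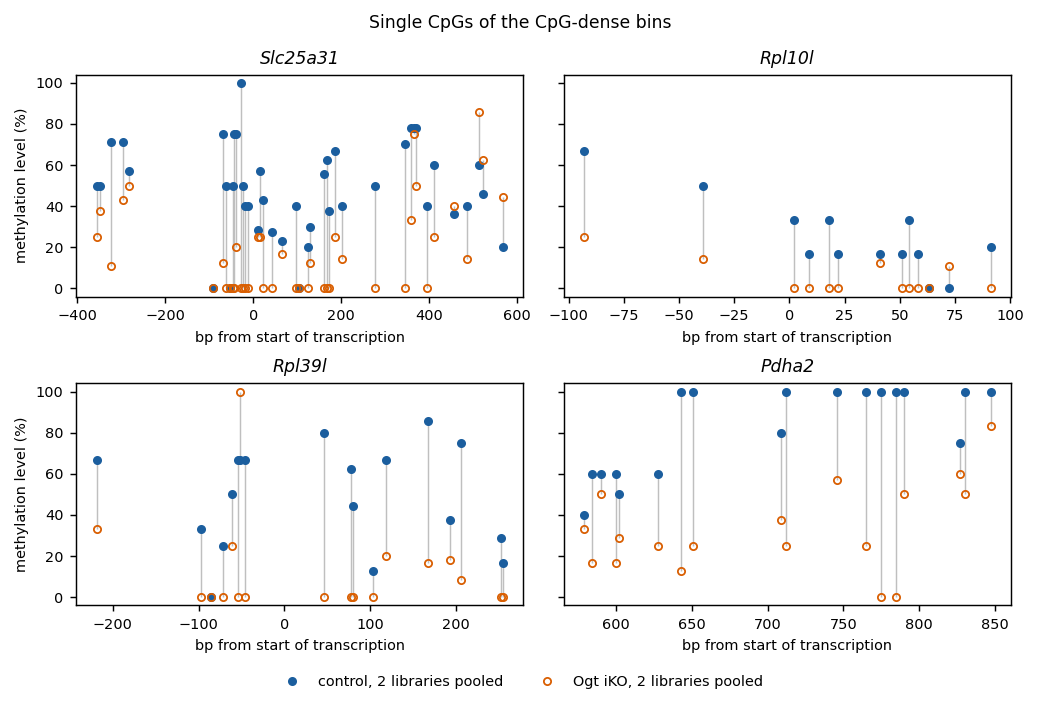
Methylation level (percent, y axis) of each CpG of the dense bins read in all 4 libraries, by distance from the start of transcription (bp, x axis). Blue dots are the pooled reads of both controls, open orange dots those of both Ogt iKO libraries, and grey lines join the values of a CpG. The orange dot is the lower in 35 of 42 CpGs of Slc25a31, 11 of 13 of Rpl10l, 16 of 18 of Rpl39l and 18 of 18 of Pdha2.

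The 300 bp promoter windows gave a narrower reading of the start, from few reads. Slc25a31 was at 2.94% and 5.36% in Ogt iKO and at 21.7% and 54.5% in controls over 15 CpGs, with the groups apart. Rpl39l was at 9.52% and 26.3% against 20% and 70.6% over 9 CpGs, with overlap, since control replicate 1 lay below Ogt iKO replicate 2. Rpl10l was at 36.1% and 12.5% against 50.0% and 36.0% over 13 CpGs, also with overlap. The CpG-poor starts differed between genes. Pgk2 was at 40% and 33.3% in Ogt iKO and 46.2% and 60.0% in controls over 4 CpGs and 12 to 15 reads, with the groups apart. Pdha2 was methylated in every library, at 89.5% and 83.3% against 87.5% and 100% over 4 CpGs and 8 to 30 reads, and its groups overlapped. The low level of Pdha2 in Ogt iKO was thus read inside the gene and not at its start.

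Letter patterns of factors that are known at germ cell promoters were searched in these windows, on both strands, and they do not overlap each other. GCGGGA, the E2F6 type, occurs in 20% of all 32851 windows, and CACGTG, the E-box of MGA and MAX, in 7.15%. Slc25a31 holds both, CACGTG beginning 93 bp before the start, in the stretch printed above, and GCGGGA beginning 20 bp after it, on the opposite strand. Both patterns stand together in 1.99% of windows. Rpl10l holds GCGGGA, beginning 43 bp before the start on the opposite strand, and no CACGTG. Neither pattern is in the windows of Rpl39l, Pgk2 and Pdha2. A match of letters is a description and shows no binding.

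Outside the dense bins, 18 sparse bins could be tested, 12 inside the genes and 6 outside them. Of these, 16 were lower in Ogt iKO and 2 higher, and 9 had the groups apart and lower, against 78.0% lower and 39.1% apart and lower among all 1062698 sparse bins. None was called, with adjusted p from 0.0845 to 0.970, and 4 were lower with an unadjusted p under 0.05, beside 12% of all sparse bins. Over all sparse bins, 2470 (0.232%) were called lower. The fit gave all sparse bins the same dispersion, and likewise all flanks, so their p-values do not reflect a single feature's spread between replicates.

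In Rpl39l the lower level went on into the gene. The bin centred 522 bp after the start, with 7 CpGs and 19 to 29 reads per library, was at 44.4% and 48.1% in Ogt iKO and at 86.2% and 89.5% in controls. The difference of -41.5 points (46.3% ± 2.62 against 87.8% ± 2.31, SD, n = 2 each) was larger than that of the dense bin and larger than the spread between replicates, and its adjusted p was 0.100 in the limma-moderated fit. Farther in, the bins centred 4022 and 4522 bp after the start were at 69.2% to 87.0% in Ogt iKO and 80.0% to 100% in controls, and they differed by -16.1 and -11.2 points. After the gene, a bin with 12 to 29 reads was at 92.3% and 87.5% in Ogt iKO against 86.2% and 66.7%, higher by 13.5 points.

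Cetn1, the centrin gene, was methylated in all libraries, and its CpG-richest bin had the largest difference of its tested bins. This bin holds 17 CpGs, all read in every library with 48 to 87 reads, and lies over the upper end of the gene. It was at 57.5% and 50.0% in Ogt iKO and at 76.4% and 85.5% in controls. The difference of -27.2 points (53.7% ± 5.28 against 81.0% ± 6.45, SD, n = 2 each) had the lowest adjusted p of the tested sparse bins of the 6 genes, 0.0845. Dense bins were adjusted separately. For this Cetn1 bin the adjusted p was 0.478 with limma on logit levels and 0.414 with edgeR. Over all sparse bins the median difference was -8.31 points and the 5th percentile -28.1 points, below the value of this bin. The Cetn1 bins on either side of it differed by -17.3 and -8.09 points, with overlapping groups.

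Pdha2 also had neighbours that were less different than its dense bin. The bin centred 1105 bp after the start was at 79.2% and 58.5% in Ogt iKO and 95.5% and 90.3% in controls, -24.0 points. The bins centred 105 bp and 1605 bp after the start differed by -12.7 and -10.4 points with overlapping groups. In Rpl10l the largest difference of a tested bin was not in the dense bin but in the sparse bin centred at -349 bp from the start. It was at 72.2% and 38.5% in Ogt iKO and 70.6% and 87.5% in controls, with overlapping groups, a difference of -23.7 points (adjusted p = 0.526 in the limma-moderated fit) that was -6.82 points without Ogt iKO replicate 2, -40.6 points without Ogt iKO replicate 1 and -15.2 points without control replicate 2. Pgk2 had no bin that could be tested. In Slc25a31 the bins before the start, centred at -621 and -1121 bp from it, were at 60.0% and 50.0% against 84.2% and 75.0%, and at 65.0% and 73.3% against 92.3% and 83.3%. Deep inside the gene, 4 bins between 7879 and 15379 bp after the start differed by -13.8 to 8.02 points, and in 3 of them the groups overlapped.

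**Figure D4:**
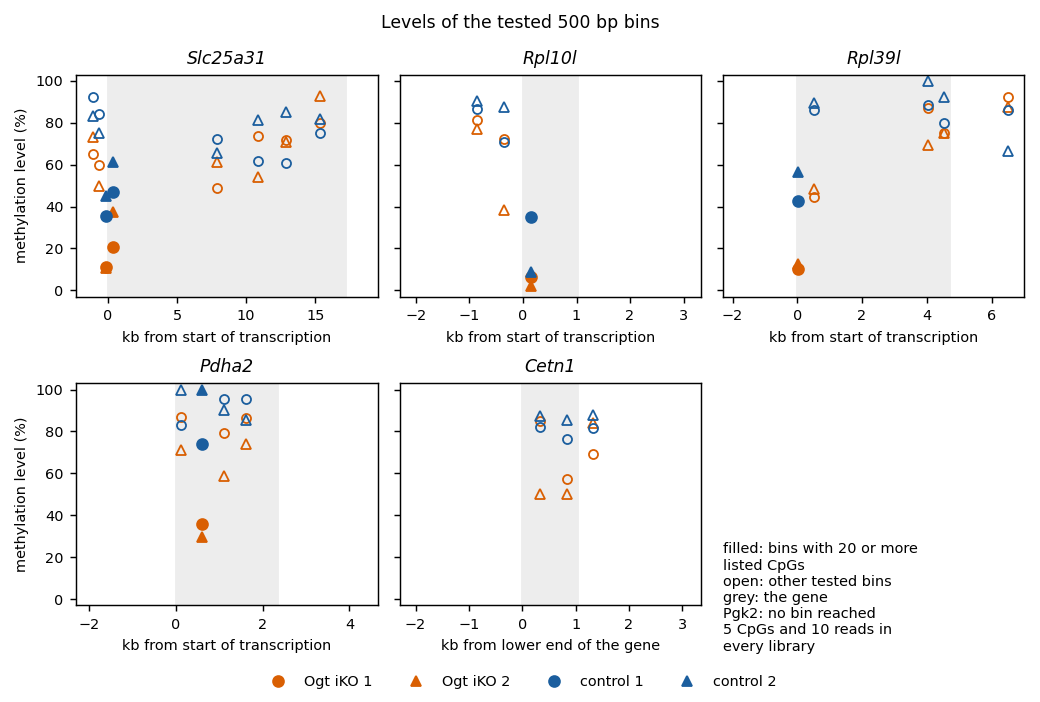
Methylation level (percent, y axis) of the 23 tested 500 bp bins of 5 genes by distance of the bin's centre from the start of transcription (kb, x axis; for Cetn1 from the lower end of the gene). Filled points are CpG-dense bins, open points other bins, and the grey band is the gene. In Slc25a31, Rpl10l and Rpl39l the filled points lie below the open ones of the same library, and in Pdha2 they do so in every library but control replicate 2.

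The sparse flanks, summed over bins outside the gene and under 20 CpGs, could be read in all 6 genes. Slc25a31 was at 73.3% and 65.6% in Ogt iKO and 81.2% and 84.1% in controls. Rpl10l was at 74.0% and 66.3% against 83.1% and 90.5%, and Rpl39l at 78.0% and 73.2% against 80.3% and 81.2%. Pdha2 was at 71.8% and 60.7% against 78.1% and 75.0%, and Cetn1 at 69.8% and 72.7% against 77.5% and 82.8%. Pgk2, the sperm glycolysis gene, was at 58.7% and 59.4% against 60.3% and 76.9%. In all 6 genes both Ogt iKO libraries were below both controls, where 58.0% of the flanks of 21063 genes were. The differences ran from -16.7 points in Rpl10l to -5.18 points in Rpl39l, with a median of -9.92 points, beside -8.39 points over all genes. None was called, with adjusted p of 0.0730 to 0.708, where 8.44% of all flanks were called lower. Single libraries moved several of these values. The difference of Pgk2 was -1.20 points without control replicate 2 and -17.8 points without control replicate 1. That of Pdha2 was -4.77 points without Ogt iKO replicate 2 and -15.8 points without Ogt iKO replicate 1, and that of Rpl39l was -2.74 points without Ogt iKO replicate 2. With at least 3 reads per CpG the flank of Cetn1 kept 6 CpGs and turned to 3.95 points higher in Ogt iKO, that of Rpl39l kept 2 CpGs, too few to test, and turned to 4.66 points higher, and that of Rpl10l was at -4.92 points. Inside Pgk2 the sparse bins, none of them tested, gave 93.5% and 90.2% in Ogt iKO and 84.1% and 94.1% in controls over 12 CpGs and 17 to 51 reads, so the groups overlapped there.

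Whether the dense part differed more than the flank was asked per library, as the level of the dense part minus that of the flank. In Pdha2 this was -36.0 and -31.2 points in Ogt iKO and -3.99 and 25 points in controls, and the group means lay -44.1 points apart, with a pooled SD of 14.7. The 25 points of control replicate 2 came from 20 reads in the dense part and 20 in the flank. In Rpl39l it was -68.0 and -60.4 against -37.5 and -24.7 points, a difference of -33.2 against a pooled SD of 7.45. In Slc25a31 it was -57.8 and -46.4 against -39.8 and -31.8 points, a difference of -16.3 against a pooled SD of 7.0, which was -10.6 without Ogt iKO replicate 1 and turned to 6.02 with at least 3 reads per CpG. In these 3 genes the groups did not overlap, and the two-sided exact permutation test over 6 arrangements gave p = 0.33 for each, the smallest p it can give. In Rpl10l the difference was -0.877 points against a pooled SD of 17.1 (two-sided exact permutation p = 1), and without control replicate 1 it was 16.1 points. Over 14493 genes with both parts the median was 7.42 points, with dense parts at a median of 1.85% in controls, and 4.64% had the groups apart and lower. Over the 2121 of them whose dense part had a mean of at least 20%, the median was 1.41 points and the 5th percentile -17.7 points, and 15.7% had the groups apart and lower. Values as low as that of Slc25a31 also occurred in the lists described next, with -16.7 points and groups apart in Pgk1, the relative of Pgk2, and -26.7 points with overlapping groups in the testis gene Tktl2.

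The relatives of these genes that act in other tissues had dense parts with little methylation. These are Slc25a5, Slc25a4, Rpl10, Rpl39, Pgk1, Pdha1 and Cetn2, of which all but Slc25a4 on chromosome 8 are on X. For Slc25a5, Slc25a4, Rpl10 and Pdha1 all libraries lay between 0% and 2.44%. Slc25a5 had 0 methylated of 17 reads in its shallowest library, which allows up to 17.6%, and Pdha1 0 of 12 reads in both controls, which allows up to 25%. Rpl39 and Pgk1 reached 25.9% and 22.2% in control replicate 2 alone, on 27 reads each, and were at 0% in control replicate 1. Cetn2 had 2 CpGs read in every library and was not tested. Of the 6 tested, 0 were called (limma-moderated fit, with 0 at an unadjusted p under 0.05, and 0 called by edgeR over all genes). Over all gene dense parts 0.00688% were called lower in that fit, and 4.62% had an unadjusted p under 0.05 and were lower. Each of the 6 had at least 1 control library at 0%, so none could have both Ogt iKO libraries below both controls. The flanks of the 7 relatives had a median of -6.49 points, and 1 of 7 was called lower, where 8.44% of all flanks were. It was that of Slc25a4, at 23.9% and 25.3% in Ogt iKO and 42.6% and 43.1% in controls (adjusted p = 0.0178). The flank of Pgk1 was the other way round, at 41.7% and 45.3% in Ogt iKO and 36.8% and 34.2% in controls, 7.95 points with the groups apart, and was not called (adjusted p = 0.597). The 4 members with a dense part all had the groups apart and lower, where 21.0% of 14532 gene dense parts did, and 41.4% of the 2127 with a mean of at least 20%. Of the 4, Rpl10l does not belong to that class. With all listed CpGs, and not only those read in every library, the groups of Rpl10l overlapped.

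Other autosomal genes of the testis with an X-linked relative were read in the same way, namely Rbmxl2, Cstf2t, Utp14b, Tktl2, Naa11, Gk2, Ubl4b and Prps1l1. Gk2, Ubl4b and Prps1l1 had no dense bin. Rbmxl2, Cstf2t and Utp14b were at 0% to 3.70% in every library, and Naa11 at 9.09% and 0% in Ogt iKO and 3.13% and 17% in controls. Tktl2, a transketolase-like gene, had the highest level in controls, with a dense part at 44.2% and 18.5% in Ogt iKO and at 78.8% and 53.1% in controls over 28 CpGs. It had the largest difference of the 5 with a dense part, -34.6 points, at an adjusted p of 0.497 in the limma-moderated fit. Among these 5 dense parts 0 were called, where 0.00688% of all gene dense parts were called lower, and 2 were apart and lower, where 21.0% were. These 2 were Tktl2 and Utp14b, and Utp14b differed by only -0.601 points, with 1 methylated read in each control and 0 in Ogt iKO. The median difference of the 5 was -1.84 points. The flanks of all 8 had a median of -12.3 points, and 2 of 8 were called lower, where 8.44% of all flanks were. These were the flank of Rbmxl2, at 7.69% and 4.65% in Ogt iKO and 28.4% and 15.9% in controls (adjusted p = 0.0345), and that of Utp14b, at 38.1% and 32.4% against 54.7% and 56.4% (adjusted p = 0.0478). Limma on logit levels called 0 of all 21063 flanks, so these calls and that of Slc25a4 end there, and those of Rbmxl2 (-16.0 points) and Slc25a4 (-18.2 points) also end under a limit of 20 points.

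The gene whose dense part had the nearest levels over the 4 libraries was found for each member among genes with at least as many dense CpGs read. For Slc25a31 it was Tmem39b, at 17.5%, 23.3%, 43.9% and 48.8% in the order used above, with a root mean square distance of 3.12 points among 8677 genes. For Rpl39l it was Slc25a31 itself, at 4.80 points among 13140 genes. For Rpl10l it was Mansc1, at 2.61 points among 13961 genes, with 36.8% and 5.00% in the controls. For Pdha2 it was Cryga, at 10.8 points among 13140 genes and 50.0%, 36.2%, 70.4% and 85.7%. Likeness over 4 libraries is a description and not a sign of a shared role.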

How the data were processed

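The libraries were whole-genome bisulfite sequencing of 2 Ogt iKO and 2 control samples. BSMAP, Picard and the build mm10 are named in the submitters' processing notes, with no role or version. The authors deposited 1 table per library with, per the file headers, read counts per CpG: those that kept a C and all C or T reads. The expected count in the deposited tables is the C or T count scaled by the G share of the opposite strand, per the file headers, and was rounded to whole numbers in an alternative. The deposited fraction (ratio and its bounds) was not used. Filters, trimming and duplicate handling are not given in the sources used here. Each table was matched to its sample by genotype and replicate number.

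CpGs were summed in 500 bp bins of a fixed grid over the autosomes and X. Bins with at least 20 listed CpGs were called dense. For each protein-coding gene, dense bins within 2000 bp of it and sparse bins outside it were also summed. CpGs needed at least 1 read in every library, and features at least 5 CpGs and 10 reads per library. A quasi-binomial model was fitted to each kind of feature, with the dispersion moderated by limma's squeezeVar and kept at 1 or more, an F test and Benjamini-Hochberg adjustment. In the main fit this moderation gave every sparse bin the same dispersion, 1.76, and every flank the same dispersion, 1.97. The dispersion prior was estimated from features with at least 20 methylated and 20 unmethylated reads and not from all features, as first planned. This was changed after tests on simulated data, where the prior from all features recovered fewer of the changed features, and that prior was run as an alternative. Differences between dense part and flank were tested by exact permutation. Alternatives were the read minimum, corrected depth, very deep CpGs (over 5 times the median), edgeR, limma on logit levels with 0.5 reads added, the replicate block, leaving out each library, the calling rule, the dense limit and the grid.

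The named genes are the 6 members, their relatives in other tissues, a list of other testis retrogenes, and the gene nearest in level to each member. In each member with a tested bin, the densest bin and the tested bin with the largest difference were named (Pgk2 had none), and further bins were described after their values were seen. Members and lists were chosen with earlier results of these data known. Promoter sequences and gene positions are from RefSeq tables of GRCm38.p6, and 100% of listed CpGs in promoter windows fell on a CG of the sequence. Cetn1 has no entry there. Means of 3.35 to 4.04 reads per CpG make the level of a single CpG coarse. Python 3.11.15, NumPy 2.4.6, pandas 2.3.3, SciPy 1.17.1, PyArrow 21.0.0, matplotlib 3.10.9, R 4.3.3, limma 3.58.1 and edgeR 4.0.16 were used.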

Additional observations from a re-analysis of the deposited data

How the results depend on the processing

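Among the members' named bins, dense parts and flanks that were recomputed, the flanks of Cetn1 (3.95 points) and, on 2 CpGs and untested, Rpl39l (4.66 points) changed sign, both with at least 3 reads per CpG. Of the dense minus flank differences, that of Slc25a31 turned to 6.02 points with at least 3 reads, and that of Rpl10l to 1.56 points with all listed CpGs and from -17.9 to 16.1 points without 1 library each, the positive values being those without Ogt iKO replicate 1 (0.757) and control replicate 1.

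With all 4 libraries, the dense bin of Rpl39l was called at a dense limit of 15, where 136 of 87104 bins were called. The dense part of Slc25a31 was called with the replicate number as a block (adjusted p = 0.0198, quasi-binomial model). In that setting 35 of 14532 dense parts were called. No other setting with all 4 libraries called a member. When adjusted only over dense parts with a mean of at least 20%, chosen after seeing the data, Slc25a31 had an adjusted p of 0.0546.

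Genome-wide counts of calls moved widely. The 6 dense bins became 3 at 20 points, 27 with a mean of at least 20%, 11 with all listed CpGs, 2 without very deep CpGs, 136 at a dense limit of 15, 0 at 25 (759 at an unadjusted p under 0.05), and 20 to 59 without 1 library each. They were 0 with limma on logit levels (2988 at an unadjusted p under 0.05), with edgeR (1603) and with the prior from all features, added after seeing the data (1064). The 1 gene dense part became 0 at 20 points, 9 with a mean of at least 20%, 4 with at least 3 reads, 41 at a dense limit of 15, and 4 to 20 without 1 library each. It became 0 with limma (943 at an unadjusted p under 0.05), edgeR (859), all listed CpGs (703), without very deep CpGs (800), at a limit of 25 (371) and with the prior from all features (544). The 2474 sparse bins became 502 with at least 3 reads, 576 with the prior from all features, 0 with limma (109101 at an unadjusted p under 0.05) and edgeR (122990), and 100 to 745 without 1 library each. The 1779 flanks became 579 at 20 points, 1113 with all listed CpGs, 488 with at least 3 reads, 0 with limma (4875), and 128 to 1489 without 1 library each. The cause of these moves was not tested. Without 1 library, and with the replicate block, all features of a kind were given the same dispersion. In the main fit this held for sparse bins and flanks but not for dense bins and dense parts. Without 1 library, the lone library is also assumed to vary like the others.

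Libraries with the same replicate number did not deviate together (correlations of -0.0108 for dense bins, 0.0429 for gene dense parts, -0.00976 for flanks and -0.00640 for sparse bins). With the replicate block the counts were 86 dense bins, 35 gene dense parts, 1233 sparse bins and 1085 flanks.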
